A study of Mus musculus with 2 samples.

Results

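The 9 genes described here encode surface proteins by which leukocytes hold on to other cells, to matrix and to the wall of the body cavity: the integrin alpha chains Itgam, Itgal and Itga6, the integrin beta chains Itgb1 and Itgb2, the tetraspanins Cd9 and Cd63, the selectin Selp and the hyaluronan receptor Cd44. They were chosen by symbol, and they take 10 gene IDs because Itgam stands for 2 of the 28692 IDs listed in the deposited files. No member was used to sort cells into classes.

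Peritoneal cells came from C57BL/6 mice that were germ-free and 10 weeks old, and RNA 3′ ends were sequenced from droplets, with unique molecular identifiers (UMIs) that count each captured RNA molecule once. One library came from WT mice and one from Xbp1dIEC mice, a name that the labels do not spell out and that is known to stand for loss of Xbp1, a factor switched on when misfolded protein builds up, from intestinal epithelial cells. What drives the deletion is not given in the sources used here. Each library pooled 4 male mice, whose cells cannot be told apart, so nothing below is replicated and the genotypes were compared without a test.

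An integrin is a pair of one alpha and one beta chain. Itgam with Itgb2 forms CR3 (CD11b/CD18, Mac-1), which binds complement fragments, fibrinogen and ICAM-1, and Itgal with Itgb2 forms LFA-1, by which lymphocytes hold on to ICAM-bearing cells, while Itga6 with Itgb1 forms a laminin receptor. Tetraspanins organise integrins and other partners in the membrane, and Cd63 lies mostly in late endosomes and lysosomes. Selp (P-selectin) is best known from platelets and endothelium, where it starts leukocyte rolling, and resident peritoneal macrophages of the mouse are known to express it. Cd44 binds hyaluronan and rises on activated lymphocytes.

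The genes lie on 6 chromosomes of GRCm38 (mm10), by the GENCODE vM21 annotation. Itgam is at chr7:128062640-128118491 and Itgal at chr7:127296260-127335138 on the same plus strand, Itgb2 at chr10:77530252-77565708 and Cd63 at chr10:128900989-128912822, both on the plus strand. Itga6 is at chr2:71745616-71858416 on the plus strand and Cd44 at chr2:102811141-102901665 on the minus strand. Itgb1 is at chr8:128685654-128733200 and Selp at chr1:164115264-164150026, both on the plus strand, and Cd9 is at chr6:125460266-125494791 on the minus strand. The other ID that the files call Itgam, ENSMUSG00000108596, is Gm49368 in that annotation, at chr7:128062683-128128160 on the plus strand, and overlaps Itgam. It held 185 UMIs in WT and 117 in Xbp1dIEC, against 24378 and 18600 for ENSMUSG00000030786. Reads of these overlapping genes may be split between them, and Itgam below is the sum of both.

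The RefSeq promoter table of GRCm38.p6 held 6 of the 9 genes. The 250 bases before the start are printed for 3 genes that stand for the patterns found below: Itgam, shared by both macrophage classes, Selp, highest in large macrophages, and Cd44, present in myeloid, B and T cells. Capitals mark GAGGAA, the core bound by the myeloid factor PU.1, and AGATAA or TGATAA, bound by GATA factors, on either strand; Gata6 is the factor that marks large peritoneal macrophages. GAGGAA on the other strand reads TTCCTC. None of the matches overlap each other. The windows are chr7:128062390-128062639 (plus strand), chr1:164115014-164115263 (plus strand) and chr2:102901666-102901915 (minus strand), and none overlaps an exon of the annotation.
Itgam: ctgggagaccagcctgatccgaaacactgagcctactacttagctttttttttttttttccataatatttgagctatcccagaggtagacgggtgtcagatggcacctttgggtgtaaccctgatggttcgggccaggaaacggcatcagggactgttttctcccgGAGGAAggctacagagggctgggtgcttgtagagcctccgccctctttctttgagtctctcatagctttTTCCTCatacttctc
Selp: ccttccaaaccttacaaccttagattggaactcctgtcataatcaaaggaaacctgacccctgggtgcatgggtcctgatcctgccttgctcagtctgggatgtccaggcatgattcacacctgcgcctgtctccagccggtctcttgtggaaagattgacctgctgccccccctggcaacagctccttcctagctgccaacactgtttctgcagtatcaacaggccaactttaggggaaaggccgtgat
Cd44: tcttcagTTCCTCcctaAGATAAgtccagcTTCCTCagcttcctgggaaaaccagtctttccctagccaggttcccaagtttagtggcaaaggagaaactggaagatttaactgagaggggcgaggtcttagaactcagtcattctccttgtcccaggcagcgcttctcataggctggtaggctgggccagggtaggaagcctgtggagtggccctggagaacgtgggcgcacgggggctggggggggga
The Itgam window held 2 matches to GAGGAA, the Cd44 window 2 of these and 1 GATA match, and the Selp window 0 of both. GAGGAA or its complement was in 23.3% of the 32851 promoter windows of this length and the GATA letters in 16.6%. Among the 6 members with an entry, 4 held GAGGAA and 1 the GATA letters. These letter matches are descriptions and not evidence of binding.

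Of the cells that passed the filters and were no doublets, 6058 were WT and 6113 Xbp1dIEC. The libraries shared 58 barcodes. Cells were sorted into classes by UMIs of marker genes, with main gates and with narrower gates that were set after the data were seen. Under the main gates there were 2102 WT and 2417 Xbp1dIEC large macrophages, 433 and 366 Folr2/Retnla macrophages, 123 and 120 Cd209a cells, 507 and 868 B-1 cells, 774 and 590 B-2 cells, 309 and 248 T cells, and 5 and 11 NK cells; 1805 and 1493 cells fell in no gate. The main gates for Folr2/Retnla macrophages and Cd209a cells were mixed: the 7 genes of the large macrophage list summed to 3444 and 3306 CPM in the former and to 2634 and 2176 CPM in the latter, against 5573 and 5824 CPM in large macrophages. The narrower gates ask for more UMIs of Folr2, Retnla and Cbr2 than of the large macrophage list in the former. In the latter they ask for under 6 UMIs of that list and under 20 of Folr2, Retnla and Cbr2. They held 175 and 183 Folr2/Retnla macrophages, 69 and 73 Cd209a cells, and 2666 and 2755 large macrophages. The large macrophage gate was thus wider in this set. It allowed under 20 instead of under 3 UMIs of Folr2, Retnla and Cbr2, where the large macrophage list had more. Large macrophages had median depths of 8819 and 7369 UMIs.

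Levels are given as CPM, UMIs of a gene scaled to a class total of 1e6, with exact 95% Poisson intervals. These and all other intervals cover counting error only. A CPM is a share of a class's RNA, so less of one gene and more of the others, or fewer cells with the gene and less RNA per cell, cannot be told apart from it. Log2 ratios are of Xbp1dIEC over WT with 1 CPM added, and a gene is called past the fold where that ratio is 0.5 or more in size with 30 or more UMIs over both libraries. Because counts come from RNA 3′ ends, levels are compared for a gene across classes and not between genes.

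Values are given for WT first and Xbp1dIEC second. Orders, ranges and counts over classes leave out the NK cells, whose values stand after those of T cells; lymphocytes there means B-1, B-2 and T cells.

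Itgam, the alpha chain of CR3, was high in both macrophage classes. Large macrophages were at 714 (702 to 726) and 667 CPM (655 to 679). Folr2/Retnla macrophages were at 718 (695 to 742) and 732 CPM (702 to 762), and under the narrower gates at 673 (637 to 711) and 724 CPM (681 to 768). The WT log2 ratio of large over Folr2/Retnla macrophages was -0.01 (-0.06 to 0.04) under the main gates and 0.09 (0.01 to 0.17) under the narrower ones. In Xbp1dIEC the Folr2/Retnla macrophages were higher under both, at -0.13 (-0.20 to -0.07) and -0.11 (-0.20 to -0.02). The Cd209a cells were lower, at 353 and 318 CPM under the main gates and at 133 CPM in both libraries under the narrower ones. Lymphocytes were lower still, with B-1 cells at 34.0 (28.9 to 39.6) and 31.1 CPM (27.5 to 35.0), B-2 cells at 24.2 and 22.1 CPM, and T cells at 15.9 and 17.2 CPM.

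**Figure D1:**
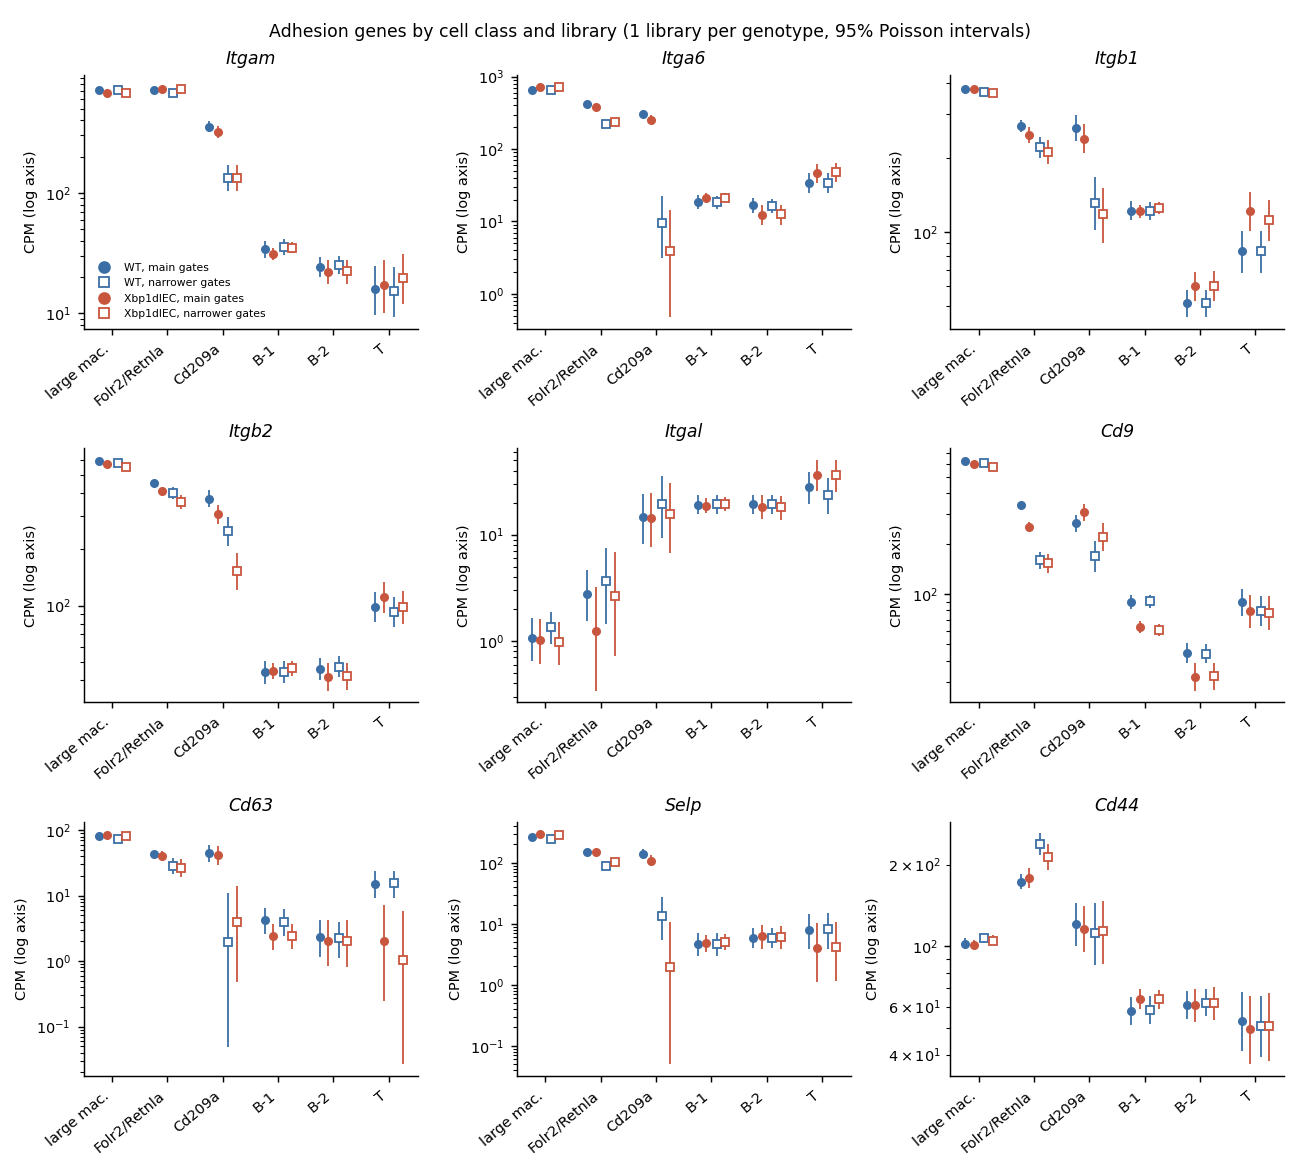
Each panel plots 1 gene as CPM on a log axis in 6 cell classes, with filled circles for the main gates, open squares for the narrower gates and bars for exact 95% Poisson intervals. The open squares of Itga6, Cd63 and Selp fall far below the filled circles in Cd209a cells, and Itgal runs opposite to the other genes.

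Itgb2, the beta chain shared by CR3 and LFA-1, was highest in large macrophages and present in every class. It was at 591 and 572 CPM in large macrophages, 451 and 409 CPM in Folr2/Retnla macrophages, and 373 and 307 CPM in Cd209a cells. T cells, at 98.7 (82.1 to 118) and 111 CPM (90.7 to 133), were above B-1 cells at 43.9 and 44.7 CPM and B-2 cells at 45.7 and 41.6 CPM. The B-1 and B-2 intervals overlapped in both libraries, and the T cell intervals lay above both.

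Itgal, the alpha chain of LFA-1, had the opposite order. It was nearly absent from large macrophages, with 20 UMIs in 2102 WT cells (1.06 CPM, 0.646 to 1.63) and 18 UMIs in 2417 Xbp1dIEC cells (1.03 CPM, 0.608 to 1.62). T cells were at 27.8 (19.4 to 38.7) and 36.5 CPM (25.6 to 50.5), B-1 cells at 19.2 and 18.8 CPM, and B-2 cells at 19.3 and 18.3 CPM. Cd209a cells, at 14.7 (8.25 to 24.3) and 14.4 CPM (7.68 to 24.7), were close to the B cells, with overlapping intervals, and far above both macrophage classes. In the Folr2/Retnla gate 14 and 4 UMIs were counted.

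The 2 alpha partners of Itgb2 thus had opposite orders, with Itgam highest in macrophages and Itgal highest in T cells among the 6 classes without NK cells. The lead of T over B-2 cells in Itgal was within counting error in WT, at a log2 ratio of 0.50 (-0.08 to 1.10). In Xbp1dIEC it was 0.96 (0.36 to 1.61). After thinning each cell to 2000 UMIs, a UMI of both Itgam and Itgb2 was found in 957 of the 2102 WT large macrophages, or 45.5% (43.4 to 47.7 by the Clopper-Pearson method). The Xbp1dIEC count was 1138 of 2417, or 47.1% (45.1 to 49.1). The product of the single shares, which independent capture would give, was 45.0% and 45.8%. In T cells, 5 of 309 and 4 of 248 cells held both Itgal and Itgb2 (1.62% and 1.61%), which is too few to set against the product of 0.848% and 1.24%. These shares depend on capture and do not count cells that carry the protein pair.

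Itga6 and Itgb1, the chains of a laminin receptor, were both highest in large macrophages, but differed in how far they spread to other classes. Itga6 was at 660 (649 to 672) and 729 CPM (716 to 741) in large macrophages. In Folr2/Retnla macrophages it was at 417 and 385 CPM under the main gates, and at 224 (203 to 246) and 237 CPM (213 to 263) under the narrower ones. In Cd209a cells the main gates gave 305 and 256 CPM, while the narrower gates left 5 UMIs in 69 WT cells (9.66 CPM, 3.14 to 22.6) and 2 UMIs in 73 Xbp1dIEC cells (3.92 CPM, 0.475 to 14.2). The narrower gate, which limits UMIs of the large macrophage list and of Folr2, Retnla and Cbr2, thus removed nearly all Itga6 from this class. T cells were at 34.2 and 46.6 CPM, B-1 cells at 18.6 and 21.3 CPM, and B-2 cells at 16.8 and 12.4 CPM.

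Itgb1 was at 381 and 380 CPM in large macrophages, 269 and 247 CPM in Folr2/Retnla macrophages, and 264 and 238 CPM in Cd209a cells, or 131 (102 to 167) and 118 CPM (89.7 to 151) under the narrower gates. B-1 cells, the innate-like B cells of the body cavities, stood at 122 CPM in both libraries (112 to 133 and 114 to 129). B-2 cells, the conventional B cells, were at 51.2 (45.0 to 58.1) and 60.2 CPM (52.2 to 69.0), less than B-1 cells in both libraries. The log2 ratio of B-1 over B-2 cells was 1.24 (1.03 to 1.48) in WT and 1.00 (0.80 to 1.24) in Xbp1dIEC. Large macrophages with a UMI of both chains after thinning were 37.5% of WT and 41.6% of Xbp1dIEC cells, beside products of 36.8% and 41.0%.

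Cd9, a tetraspanin that partners integrins, was highest in large macrophages at 623 (612 to 635) and 597 CPM (586 to 609). Folr2/Retnla macrophages were at 340 and 251 CPM, and under the narrower gates at 159 (141 to 178) and 153 CPM (134 to 174). Cd209a cells were at 264 and 308 CPM, or 168 and 219 CPM. The order of the Folr2/Retnla and Cd209a classes turned between libraries under the main gates. Among B and T cells, B-1 cells were at 89.4 (81.1 to 98.4) and 63.8 CPM (58.5 to 69.3), T cells at 89.1 (73.4 to 107) and 79.1 CPM (62.5 to 98.7), and B-2 cells at 44.6 and 32.1 CPM. Cd9 is known to mark B-1 and marginal zone B cells, and its log2 ratio of B-1 over B-2 cells was 0.99 (0.76 to 1.25) in WT and 0.97 (0.69 to 1.30) in Xbp1dIEC.

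Cd63, the late endosomal tetraspanin, was at 81.1 and 85.9 CPM in large macrophages and 42.7 and 40.5 CPM in Folr2/Retnla macrophages, or 28.6 and 26.6 CPM under the narrower gates. Cd209a cells were at 45.2 and 42.2 CPM under the main gates and held 1 and 2 UMIs under the narrower ones. B cells held 7 to 21 UMIs per library, at most 4.22 CPM. In WT T cells Cd63 stood at 15.1 CPM, but 14 of its 19 UMIs came from 1 cell.

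Selp was highest in large macrophages, at 263 (255 to 270) and 297 CPM (289 to 306). A UMI was found in 82.1% and 82.6% of these cells, and in 22.2% and 26.1% after thinning each cell to 1000 UMIs. The 5 platelet and megakaryocyte genes together were at 0.529 and 0.171 CPM there, with Gp1bb at 0 in both libraries, and the 4 endothelial genes at 1.53 and 1.14 CPM, with Cdh5 at 0. Platelet and endothelial RNA was thus at or near 0 in these cells. Folr2/Retnla macrophages were at 150 CPM in both libraries, and at 88.5 (75.7 to 103) and 103 CPM (87.4 to 121) under the narrower gates. Lymphocytes held 4.06 to 7.96 CPM, and a UMI was found in 2.91% of WT and 1.61% of Xbp1dIEC T cells (0.971% and 0.403% thinned), at median depths of 3578 and 3682 UMIs.

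Cd44 was higher in Folr2/Retnla macrophages than in large macrophages in both libraries and under either gate. It was at 173 (162 to 185) and 178 CPM (164 to 194) there, against 102 (98.0 to 107) and 101 CPM (96.8 to 106) in large macrophages. The narrower gates set them further apart, at 238 (217 to 261) and 214 CPM (191 to 239) against 107 and 105 CPM. Cd209a cells were at 121 and 116 CPM, and the B-1, B-2 and T cells at 49.7 to 64.0 CPM, with overlapping intervals in each library.

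Under the narrower gates 4 members, Itga6, Cd9, Cd63 and Selp, were at least 2 times higher in large macrophages than in each of the 5 other classes in both libraries, and 1.14% of all genes with 10 CPM in 1 class were. The log2 ratio of large over Folr2/Retnla macrophages under these gates was 1.93 in WT and 1.90 in Xbp1dIEC for Cd9, 1.54 and 1.58 for Itga6, 1.48 and 1.46 for Selp, and 1.32 and 1.56 for Cd63. For Cd44 it was -1.15 and -1.02, and for Itgam 0.09 (0.01 to 0.17) and -0.11 (-0.20 to -0.02). Under the main gates 0 members met the 2-fold rule, against 0.116% of genes. There, 6 members had all 3 myeloid classes at least 2 times above B-1, B-2 and T cells, against 9.46% of genes, and under the narrower gates only Itgam did, against 4.68%. These counts therefore depend on how the myeloid classes are drawn, and the narrower set has a wider large macrophage gate.

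Free RNA from broken macrophages can give UMIs in lymphocytes, so the members were set beside myeloid genes that no gate used. Lyz2, the C1q genes and Csf1r, as CPM in lymphocytes, were at 1.12% to 3.89% of their large macrophage level, and Apoe at 3.60% to 6.98%; Ctss, which B cells also express, reached 57.3%. Selp was in this range, at 1.36% to 3.03%, and so was Itga6 in B-1 and B-2 cells, at 1.70% to 2.92%. In Xbp1dIEC B-1 cells, however, Itga6 at 2.92% (2.51 to 3.37) was above Lyz2 at 1.76% and Csf1r at 1.56% (1.15 to 2.06) in the same cells. Itga6 in T cells was at 5.18% (3.75 to 6.98) and 6.40% (4.68 to 8.54), beside Lyz2 at 3.73% and 1.84% and Apoe at 6.17% and 3.60%. Itgam was at 2.23% and 2.58% in T cells and 3.40% and 3.31% in B-2 cells. In B-1 cells, which are known to carry CD11b, Itgam was at 4.76% (4.05 to 5.56) and 4.66% (4.11 to 5.25), above Lyz2 at 2.50% and 1.76%, but below Apoe in WT, at 6.81%. Itgb1 and Cd44 stood at 13.5% or more in B-1, B-2 and T cells of both libraries, far above Lyz2 and Apoe. Cd9 in B-2 cells, at 7.16% (6.22 to 8.21) and 5.38% (4.42 to 6.50), was close to Apoe at 6.98% and 4.48%, and Itgb2 there was at 7.73% and 7.27%. In B-1 and T cells Cd9 stood between 10.7% and 14.4%.

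**Figure D2:**
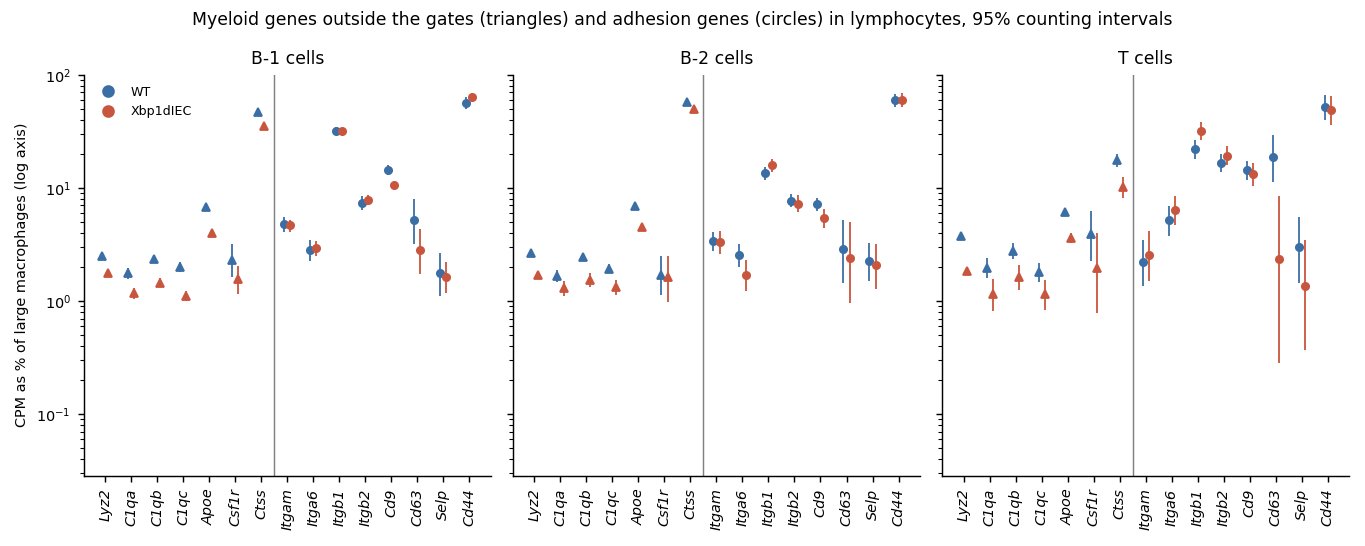
The level of each gene in B-1, B-2 and T cells is plotted as a percent of its level in large macrophages, on a log axis, with triangles for myeloid genes that no gate used, circles for adhesion genes and bars for 95% counting intervals. Selp lies among Lyz2 and the C1q genes, and Itgb1, Itgb2, Cd9 and Cd44 lie above them; Itgal, which is higher in lymphocytes, is not drawn.

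Of the 8 members with 30 or more UMIs over both B cell classes in each library, Itgb1 and Cd9 had a log2 ratio of B-1 over B-2 cells of 0.5 or more in both libraries. Of all genes measured the same way, 3.91% did. Itgam was at 0.47 in both libraries (0.13 to 0.85 and 0.12 to 0.88). Itgb2, Itgal and Cd44 lay between -0.08 and 0.10, with intervals that include 0. Itga6 was at 0.14 (-0.31 to 0.60) and 0.73 (0.29 to 1.30). The B-1 cells were deeper, at 8067 UMIs per WT cell (median) against 4826 in B-2 cells. A Cd9 UMI was found in 48.5% of WT B-1 and 20.3% of WT B-2 cells, and after thinning to 1000 UMIs in 9.47% (7.06 to 12.4) and 4.65% (3.28 to 6.38).

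Between genotypes the members differed little in large macrophages, as most genes did there. There 0 of 9 members were past the fold, while 0.954% of 10796 genes were past it upward and 4.19% downward. Selp had a log2 ratio of 0.18 (0.12 to 0.24) and Itga6 of 0.14 (0.11 to 0.18), both higher in Xbp1dIEC beyond counting error. Itgam was at -0.10 (-0.13 to -0.06), Cd9 at -0.06 and Itgb2 at -0.05. Relative to the median gene, which was at -0.06, Itga6 was at 0.20, Selp at 0.24, Itgam at -0.04, Cd9 at 0.00 and Itgb2 at 0.01 (Cd9 and Itgb2 thus lay at the median gene). Itgb1, Cd63, Cd44 and Itgal had intervals that include 0. The median over the members was -0.01.

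In Folr2/Retnla macrophages 0 of 8 members were past the fold, against 3.82% of genes upward and 7.38% downward, or 5.25% and 10.8% under the narrower gates, where 0 of 8 were past it too. Cd9, at 340 and 251 CPM, had a log2 ratio of -0.44 (-0.56 to -0.32) under the main gates and of -0.05 (-0.31 to 0.20) under the narrower ones. In the main gate the 5 genes of the Folr2/Retnla marker list summed to 7476 and 11062 CPM. Folr2, Retnla and Cbr2 among them also define the gate. The large macrophage list summed to 3444 and 3306 CPM. Neither a difference in the mix of cells nor its part in the Cd9 ratio was tested.

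In Cd209a cells 0 of 8 members were past the fold, against 6.12% of genes upward and 14.2% downward. Under the narrower gates Itgb2 was, as 1 of 5 members with enough UMIs and against 7.04% and 14.4% of genes. There it stood at 249 (208 to 296) and 153 CPM (121 to 191), with a log2 ratio of -0.70 (-1.13 to -0.29), on 129 and 78 UMIs. Under the main gates it was at -0.28 (-0.51 to -0.05). Itgam, its partner, was at 133 CPM in both libraries under the narrower gates.

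**Figure D3:**
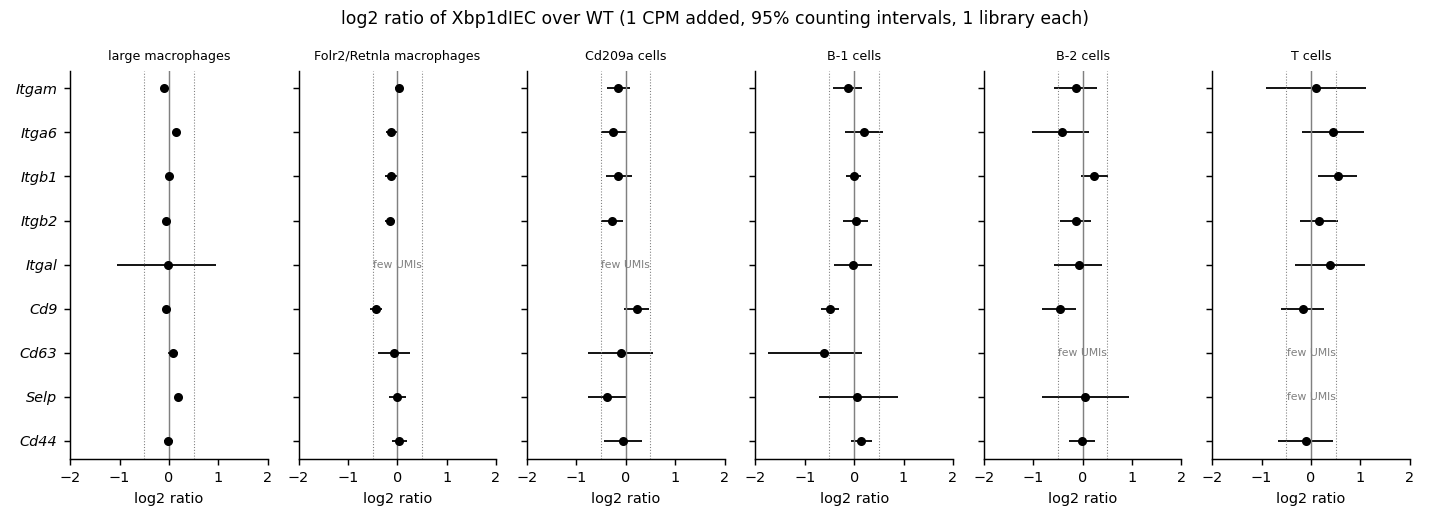
Log2 ratios of Xbp1dIEC over WT are plotted for 9 genes in 6 classes under the main gates, with bars for 95% counting intervals and dotted lines at the fold of 0.5; genes with under 30 UMIs are marked in words and not drawn. Among genes with 30 or more UMIs, Cd63 in B-1 cells and Itgb1 in T cells lie past a dotted line, and the Cd63 bar crosses 0.

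Cd9 was lower in Xbp1dIEC in both B cell classes. In B-1 cells, 424 UMIs in WT and 552 in the larger Xbp1dIEC class gave 89.4 and 63.8 CPM, a log2 ratio of -0.48 (-0.67 to -0.30). It was -0.55 (-0.74 to -0.38) under the narrower gates, which is past the fold, and -0.25 where cells with 5% or more mitochondrial UMIs were left out. In B-2 cells it was -0.46 (-0.82 to -0.13), on 210 and 109 UMIs. Myeloid RNA in these cells was lower in the Xbp1dIEC library too: Lyz2 was at 1230 and 961 CPM in B-1 cells and at 1303 and 930 CPM in B-2 cells. As a share of the large macrophage level, Lyz2 in B-1 cells was at 2.50% and 1.76%, while Cd9 was at 14.4% and 10.7%. In B-2 cells Cd9 was at 7.16% and 5.38%, close to Apoe at 6.98% and 4.48% and above Lyz2 at 2.65% and 1.70%. The part of free RNA in the Cd9 ratio was not tested. Among B-1 members 1 of 9 was past the fold, downward, against 5.35% of genes downward and 6.08% upward. This was Cd63, on 20 and 21 UMIs, with a log2 ratio of -0.61 and an interval of -1.75 to 0.16. In B-2 cells 0 of 8 were past it, against 3.87% and 5.45%.

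Cd9 was compared within 2 states of B-1 cells, known from an earlier look at these data. Cells with more UMIs of Ahnak2, Phgdh and Ass1 than of Fbxw13, Prkar2b and Fgd2 numbered 275 in WT and 250 in Xbp1dIEC, and their Cd9 was at 99.3 (87.8 to 112) and 106 CPM (93.8 to 119), a log2 ratio of 0.09 (-0.15 to 0.34). Cells with more of the other 3 genes numbered 163 and 507 with Cd9 at 73.1 (60.0 to 88.2) and 43.1 CPM (37.6 to 49.2), a log2 ratio of -0.75 (-1.10 to -0.42). The intervals of the 2 ratios did not overlap, and their difference was not tested. Cd9 was higher in the Ahnak2 state in both libraries, with a log2 ratio over the Fbxw13 state of 0.44 (0.11 to 0.78) in WT and 1.28 (1.04 to 1.56) in Xbp1dIEC. Lyz2 was at 1194 and 1020 CPM in the Ahnak2 state and at 1337 and 951 CPM in the Fbxw13 state. The Xbp1dIEC library held more cells of the Fbxw13 state, and Cd9 within that state was lower there than in WT. Ahnak2, Fbxw13 and Prkar2b are also among the genes that admit cells to the B-1 gate, so the gate shapes the state counts. Cells with equal UMIs of the 2 gene sets were in neither state. The part of the state counts in the Cd9 ratio of all B-1 cells was not tested.

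Cd44 had another pattern over the same states, at 65.8 and 61.2 CPM in the Ahnak2 state and 46.0 (35.7 to 58.3) and 65.5 CPM (58.7 to 72.8) in the Fbxw13 state, where its log2 ratio was 0.50 (0.13 to 0.91). Itgb1 was level over the states and libraries, at 112 to 128 CPM. The 25 WT and 27 Xbp1dIEC B-1 cells with a UMI of Cd5, the surface gene that separates B-1a from B-1b cells, had Cd9 at 133 and 115 CPM, against 86.5 and 61.6 CPM in cells without one, log2 ratios of 0.62 (0.11 to 1.09) and 0.89 (0.40 to 1.36). Cells with a Cd5 UMI were deeper, at medians of 10266 and 11060 UMIs against 8032 and 8393, and a cell without a Cd5 UMI may still express Cd5.

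In T cells Itgb1 was the 1 of 7 members past the fold, upward, against 7.31% of genes upward and 8.42% downward. UMIs of it lay in 58 of 309 and 64 of 248 cells and gave 83.5 (68.3 to 101) and 122 CPM (101 to 145), with a log2 ratio of 0.54 (0.15 to 0.93). It was 0.41 (0.01 to 0.82) under the narrower gates. Under those gates Itgal was past the fold instead, at 0.61 (-0.12 to 1.40) on 29 and 35 UMIs. NK cells were too few under the main gates for a count of members. For NK cells the narrower gates were in fact wider. They set no fixed limit on T cell genes and asked for more UMIs of NK than of T cell genes. They gave 20 WT and 24 Xbp1dIEC cells, which can include T cells with NK genes. In this gate Itgal was at 117 (53.4 to 222) and 63.0 CPM (20.4 to 147) and Itgb2 at 260 and 327 CPM. Itgb1 was at 64.9 (21.1 to 152) and 353 CPM (234 to 510), on 5 and 28 UMIs. The Itgb1 log2 ratio there was 2.42 (1.05 to 4.17). Cd9 in this NK gate, at 377 (252 to 541) and 214 CPM (125 to 343) on 29 and 17 UMIs, was above that of B and T cells in both libraries. Its log2 ratio between genotypes was -0.81 (-1.77 to 0.10). Cd44 was at 77.9 (28.6 to 170) and 164 CPM (87.1 to 280).

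Large macrophages with cell cycle UMIs had less Cd63, Selp, Cd9 and Itgb2. Cells with 3 or more UMIs of cell cycle genes numbered 203 in WT and 86 in Xbp1dIEC. Their Cd63 was at 44.1 (36.4 to 53.0) and 23.6 CPM (14.8 to 35.7), against 86.9 and 89.4 CPM in the other large macrophages, and the log2 ratio of cycling over other cells was -0.96 (-1.27 to -0.70) and -1.88 (-2.60 to -1.32). Selp was at 214 and 221 CPM against 270 and 302 CPM, with log2 ratios of -0.33 (-0.47 to -0.21) and -0.45 (-0.66 to -0.25), and Cd9 had -0.29 and -0.17. Itgb2 had -0.16 (-0.24 to -0.08) and -0.22 (-0.36 to -0.08), and Itgam -0.12 in both libraries. Itga6 and Itgb1 were level, with ratios from 0.02 to 0.11. Cd44 in cycling cells was higher beyond counting error in Xbp1dIEC, at 159 CPM against 98.3 CPM (log2 ratio 0.68, 0.44 to 0.93), and stood at 110 against 101 CPM in WT (0.12, -0.07 to 0.30); the difference between these ratios was not tested. Cycling cells were deeper, at medians of 13260 and 11954 UMIs against 8636 and 7292.

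**Figure D4:**
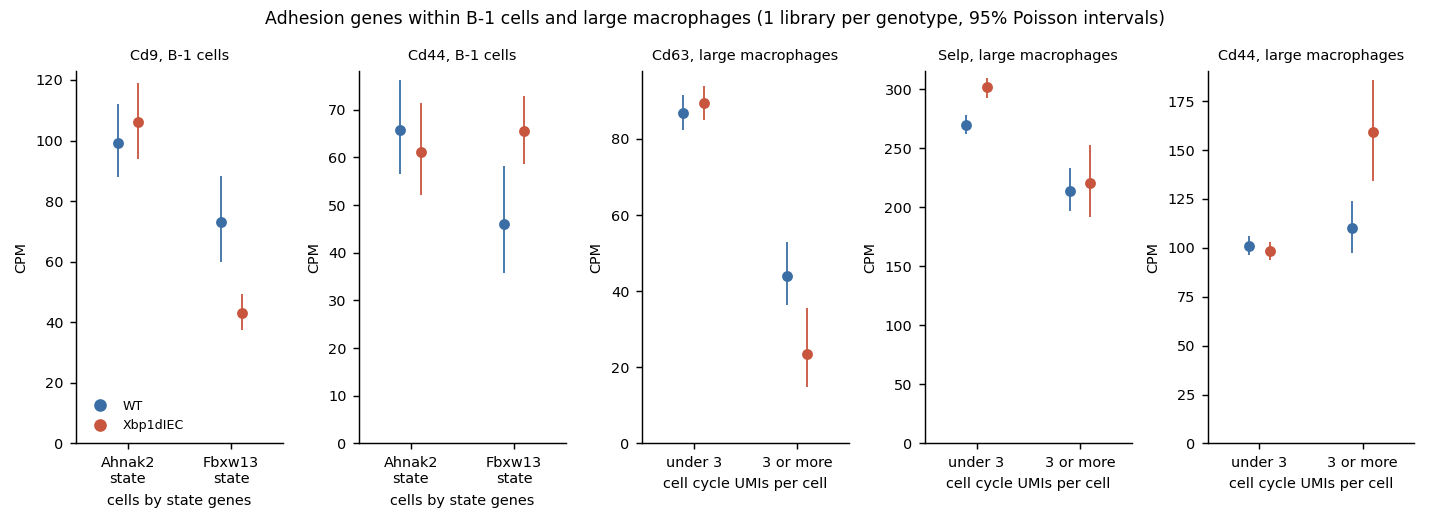
CPM is plotted on linear axes from 0 for Cd9 and Cd44 in the 2 states of B-1 cells, and for Cd63, Selp and Cd44 in large macrophages with under 3 and with 3 or more cell cycle UMIs, with bars for exact 95% Poisson intervals. Cd9 separates the libraries in the Fbxw13 state alone, and Cd63 is lower in cycling cells of both.

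Other genes of the adhesion machinery, in 7 lists with 114 usable genes, also differed little in large macrophages, as most genes did there. Of 67 measured there, 1 was past the fold upward (Spp1) and 2 downward (Tspan18 and Hmmr), with a median log2 ratio of -0.08. The shares over all genes in this class, 0.954% and 4.19%, are close to these. Spp1, the matrix protein osteopontin, was at 7.83 and 15.8 CPM (0.93), and Hmmr, a hyaluronan receptor that is also a cell division gene, at 4.66 and 2.22 CPM (-0.81). Fn1 (fibronectin), an integrin ligand, was at 6450 and 6939 CPM (0.11), and Thbs1 (thrombospondin 1) at 593 and 763 CPM (0.36, 0.33 to 0.40). Cd36, a partner of Cd9 and receptor of thrombospondin 1, was at 161 and 191 CPM (0.25). The integrin activators Tln1 (talin) and Rap1b were at 589 and 557 CPM and at 809 and 750 CPM. Of 18 measured activators and adaptors 0 were past the fold in this class.

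In the Folr2/Retnla gate, 2 of 63 list genes were past the fold upward (Itga9 and Lyve1) and 6 downward, near the 3.82% and 7.38% of all genes. Lyve1, a hyaluronan receptor, was at 91.1 and 165 CPM there (0.85, 0.68 to 1.04), beside 20.5 and 17.7 CPM in large macrophages. The Folr2/Retnla marker list was higher in this gate too, as given above, and its part in the Lyve1 ratio was not tested. In Cd209a cells 3 of 48 were past it upward (Itgax, Cd82 and Flna) and 4 downward (Itgb7, Tspan4, Selplg and Stab1), beside 6.12% and 14.2% of all genes. Itgb7, the partner of Itga4 in gut homing, was at 168 and 119 CPM (-0.50, -0.86 to -0.14).

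In B-1 cells 2 of 56 list genes were past the fold upward (Tspan5 and Tspan14) and 5 downward (Fn1, Thbs1, Cd24a, Cd36 and Ezr), beside 6.08% and 5.35% of all genes. Tspan14, a tetraspanin that escorts the protease ADAM10, was at 23.0 and 34.4 CPM (0.56, 0.26 to 0.91). Ezr (ezrin), which ties Cd44 to actin, was at 189 and 124 CPM (-0.60, -0.74 to -0.48), and Cd24a at 394 and 168 CPM (-1.22). Itgb7 was at 146 and 110 CPM (-0.40, -0.55 to -0.26) in B-1 and at 141 and 103 CPM (-0.45, -0.64 to -0.26) in B-2 cells. Fn1, Thbs1 and Cd36 are macrophage genes in these data. Fn1 in B-1 cells was 2.67% and 1.45% of its large macrophage level, close to Lyz2, and Thbs1 1.81% and 0.923%. Cd36 was at 8.39% and 4.10%, above Lyz2 and beside Apoe at 6.81% and 3.97%. Lyz2 was lower in Xbp1dIEC B-1 cells as well, and its part in these values was not tested. Itga4, an integrin alpha chain that pairs with Itgb1 or Itgb7, was at 119 and 133 CPM in B-1 cells and at 148 CPM in B-2 cells of both libraries. In B-2 cells 0 of 52 list genes were past the fold upward and 2 downward (Itgav and Icam1), beside 3.87% and 5.45% of all genes. In T cells 1 of 37 was past it upward (Icam1) and 2 downward (Cd81 and Cd24a), beside 7.31% and 8.42% of all genes, and the tetraspanin Cd53 stood at 564 and 570 CPM.

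Across the 14 points of 7 classes and 2 libraries, the genes whose log2(CPM + 1) followed each member most closely were found among 4523 genes with 50 CPM in 1 point. For Selp they were Thbs1, Ednrb and Csf1r (Pearson r 0.994, 0.992 and 0.990), for Itgam Atpif1, Timp2 and Adgre1, and for Itga6 they included Hgsnat and Prg4. For Itgb2 they were Rap1b, Ctsl and Bsg, for Itgb1 Magt1, Echs1 and Sppl2a, and for Itgal Nup210, Cd47 and Def6. For Cd9 they were Nagk, Tyrobp and Lgals3bp, for Cd63 Dpep2, Hp and Mcemp1, and for Cd44 Tmed7, Anxa7 and Atp6v0d1. The points share libraries and mixed gates, and 2 of them are the NK gate with 5 and 11 cells. Adgre1 and Prg4 are genes of the large macrophage gate, so their pattern over these points was partly set by the gates. With the Spearman correlation 6 of these 27 genes were named again.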

How the data were processed

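Counts were whole-number UMIs per gene and cell barcode, deposited by the authors without normalization. Build mm10 and the tools Cell Ranger 2.2.0 and Seurat 2.3.0 are taken from the submitters' processing notes; the annotation is not given in the sources. The libraries held 6204 (WT) and 6246 (Xbp1dIEC) barcodes and 56229330 and 49703442 UMIs. Filters asked for at least 500 UMIs and 200 genes and for under 10% mitochondrial UMIs, and 140 and 113 doublets called by scrublet (scanpy 1.11.5, expected rate 5%) were left out; missed doublets remain possible in every class.

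Large macrophages had 6 or more UMIs of Gata6, Timd4, Adgre1, Alox15, Prg4, Garnl3 and Ltbp1, Folr2/Retnla macrophages 3 or more of Folr2, Retnla and Cbr2, and Cd209a cells 2 or more of Cd209a. B cells had 4 or more UMIs of 5 B cell genes, and were split by Bhlhe41, Zbtb32, Zcwpw1, Ahnak2, Fcrl5, Ctla4, Prkar2b and Fbxw13 (B-1) against Fcer2a, Ighd and Cr2 (B-2). T cells had 3 or more UMIs of 6 CD3 and T cell receptor genes, and NK cells 4 or more of 8 NK genes. The main gates limited T cell UMIs in NK cells, and the narrower gates asked instead for more NK than T cell UMIs. The gates limited UMIs of other lineages but allowed a few, such as under 6 of the large macrophage list in lymphocytes. Folr2/Retnla macrophages and Cd209a cells had no limit on that list under the main gates. Cells that met no gate were left out of the classes. The narrower gates (20 or more UMIs for Folr2/Retnla macrophages, under 6 large macrophage UMIs for Cd209a cells) were set, and revised once, after the data were seen. They loosened the limit on UMIs of Folr2, Retnla and Cbr2 from under 3 to under 20 in large macrophages and lymphocytes. In Cd209a cells, which had no such limit under the main gates, they set it at under 20.

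For each class, a library's UMIs were summed, and Poisson, Clopper-Pearson and conditional binomial intervals at 95% were computed with scipy 1.17.1; the calculation was tested on simulated data. Alternatives changed doublets, the mitochondrial filter, gates, totals, the CPM added, averaging, cycling cells, thinning and the fold. Genes named were the members, the 3 genes most like each, and of each list the 2 highest in CPM and up to 2 furthest past the fold with 100 or more UMIs in large macrophages and B-1 cells; others stand beside small counts and were named after their values were seen. Some genes that this rule names are not reported here. Members and lists were chosen with earlier results of these data known.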

Additional observations from a re-analysis of the deposited data

Results flagged for a closer look

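Itga6 differed between genotypes in opposite directions in 2 macrophage classes, each beyond counting error. In large macrophages its log2 ratio was 0.14 (0.11 to 0.18), higher in Xbp1dIEC, and in Folr2/Retnla macrophages it was -0.12 (-0.22 to -0.01) under the main gates. The difference between the classes was not tested. Under the narrower gates the values were 0.12 and 0.08 (-0.12 to 0.29), and the opposite directions were gone.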

How the results depend on the processing

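Of 648 log2 ratios of members under 12 alternatives, 606 stayed within the counting interval of the value reported and 42 moved outside it. Under the main gates only Cd63 in B-1 cells and Itgb1 in T cells were past the fold, and neither changed sign. Some smaller ratios beyond counting error did change sign. Itga6 in Folr2/Retnla macrophages went from -0.12 to 0.08 under the narrower gates. Itgb2 in large macrophages went from -0.05 to 0.01 when centred on the median gene. The count of members past the fold was 0 under all of these alternatives in large and in Folr2/Retnla macrophages. In Cd209a cells it was 0, and 3 with stricter gates, 2 with gates on UMIs scaled to 5000 per cell and 1 with the narrower gates. In B-1 cells it was 1, and 2 with looser or narrower gates, with the mean of each cell's own CPM or with cycling cells left out. It was 0 there with a mitochondrial filter of 5%, stricter or scaled gates, 10 CPM added or a fold threshold of 1. In B-2 cells it was 0, and 1 with stricter, looser or scaled gates or the mean of each cell's own CPM. In T cells it was 1, and 0 with 10 CPM added or a threshold of 1. The share of all genes past the fold was counted only under the main gates and in the narrower Folr2/Retnla and Cd209a gates. The counts under other settings have no such share beside them and cannot be read as a result about the members. The cause of these changes was not tested. Cd9 stayed lower in Xbp1dIEC under every alternative, from -0.56 to -0.25 in B-1 and from -0.56 to -0.36 in B-2 cells; Itga6 in large macrophages ranged from 0.12 to 0.20 and Selp from 0.16 to 0.24. Shares of cells with a UMI moved in 105 of 108 values without thinning. Low counts limit Cd63 and Selp in lymphocytes, Itgam in T cells and Itgal in the myeloid classes. No paired analysis was possible because there is 1 library per genotype.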
